A study of Homo sapiens with 24 samples.

Results

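The comparison is between T/C-28a2 cells, an immortalised human chondrocyte line, without functional WNK2 (WNK2- Ctr, genotype WNK2 knockout, no added osmolyte) and the parental line (WT Ctr, genotype WT, the same isotonic media), with 4 RNA-seq libraries in each. They are 8 of the 24 libraries analysed here. The WNK2- cells had exon 2 of WNK2, which holds the start codon, removed with CRISPR/Cas9 ribonucleoproteins, and were grown out from 1 clone. The labels give no transfection for these 8 libraries, and deletion and clonal origin cannot be told apart with 1 clone. The study treated replicates as biological. The other libraries, 4 in each group, came from WT cells given sorbitol (WT Sor), a WNK2 plasmid (WNK2 trans Ctr) or both (WNK2 trans Sor), and from the WNK2- clone given sorbitol (WNK2- Sor). The question is which genes differ in expression when WNK2 is deleted and the medium is not hyperosmotic.

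WNK kinases are serine/threonine kinases that sense chloride and osmolarity. They phosphorylate SPAK (STK39) and OSR1 (OXSR1), which in turn switch on sodium-linked chloride importers such as NKCC1 (SLC12A2) and switch off the potassium-chloride exporters of the same family, so that the cell regains its volume. Chondrocytes live in a matrix of collagens and the proteoglycan aggrecan that holds water osmotically, and proteases of the MMP and ADAMTS families take that matrix apart in osteoarthritis (OA).

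WNK2 (ENSG00000165238, chromosome 9, 93184916 to 93320572 on GRCh38) was read first as a check of the labels. Values are normalized counts, that is read counts divided by the library's effective size and scaled to the mean size of all 24 libraries. The 4 libraries labelled WT Ctr held 3097, 1441, 2133 and 3409, and the 4 labelled WNK2- Ctr held 417, 404, 388 and 417. The groups did not overlap (log2 fold change −2.63 ± 0.20 SE, edgeR adjusted p = 1.54e-10, quasi-likelihood F-test in edgeR, corrected by Benjamini-Hochberg across every tested gene). Counts cover all exons of the gene, so transcripts that lack exon 2 are counted too. In the other groups the level followed the labels only in part. It was 2245 to 3793 in WNK2 trans Sor and 311 to 419 in WNK2- Sor, as labelled. It did not follow the labels in WT Sor, at 283 to 319, and in WNK2 trans Ctr, at 183 to 296. The libraries labelled as transfected with WNK2 in isotonic media thus held less WNK2 than those labelled WT Ctr, and the WT Sor libraries held about as little as the WNK2- clone. Every direction below therefore rests on the labels WT Ctr and WNK2- Ctr. Beside the main results, the values of WNK2- Ctr against the libraries labelled WNK2 trans Ctr, the other isotonic WT group, are given. Both comparisons use the same WNK2- Ctr libraries, and the second was added after the data were seen. Against WNK2 trans Ctr, WNK2 itself had a log2 fold change of 0.69.

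Read totals were 14153002 to 17128840 in WT Ctr and 20441364 to 22461641 in WNK2- Ctr, so every WNK2- Ctr library was deeper. WT Ctr replicate 2 stood apart from the other 3: it had 17619 genes with a count and 2.21% mitochondrial reads, where the others had 2.99% to 3.09%. Some broadly expressed genes were listed at or near 0 in all 8 libraries, among them RHOA at 0 and ALDOA at 0 to 2 counts. A listed 0 is therefore not evidence that a gene is silent here. Of 1312 genes in the lists used below, 121 were at 0 in all 24 libraries, SOX9, COL10A1, MMP1, TIMP1, TIMP3 and TNC among them, and no value is given for these. The cause was not tested.

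Of 16600 genes that passed the filter on low counts, 6996 (42.1%) had an adjusted p under 0.05 and are called changed. In WNK2- Ctr 3435 were higher (20.7% of those tested) and 3561 were lower (21.5%). The change was at least 2-fold up for 1443 and at least 2-fold down for 1026 of them, and the median size of a called change was 0.73 on the log2 scale. The 4 libraries of each group did not overlap for 6121 genes (36.9%), 3178 higher and 2943 lower. Without WT Ctr replicate 2 the counts were 3089 higher and 3287 lower, and 5855 genes were called in the same direction in both fits. The clone was also compared with WT cells under sorbitol, in 8 libraries that the isotonic comparison did not use. There 7690 genes (46.3%) were called, 3928 higher and 3762 lower. WNK2 itself stood at 283 to 319 in WT Sor and 311 to 419 in WNK2- Sor, so the sorbitol comparison rests on those labels. The difference between clone and WT itself differed between media for 1436 genes (8.65%), 663 more positive and 773 more negative under sorbitol. Against the libraries labelled WNK2 trans Ctr 7924 genes (47.7%) were called, 3988 higher and 3936 lower. All 8 libraries of the clone lay beyond all 16 WT libraries, whatever their medium or transfection, for 1529 genes (9.21%), 738 above and 791 below. Called genes were spread over the whole range of expression, as the plot of all tested genes shows. For each gene whose 8 values are listed below, in the order of replicates 1 to 4, the WT Ctr and WNK2- Ctr libraries did not overlap. The share called of each gene group can be read against these percentages.

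**Figure D1:**
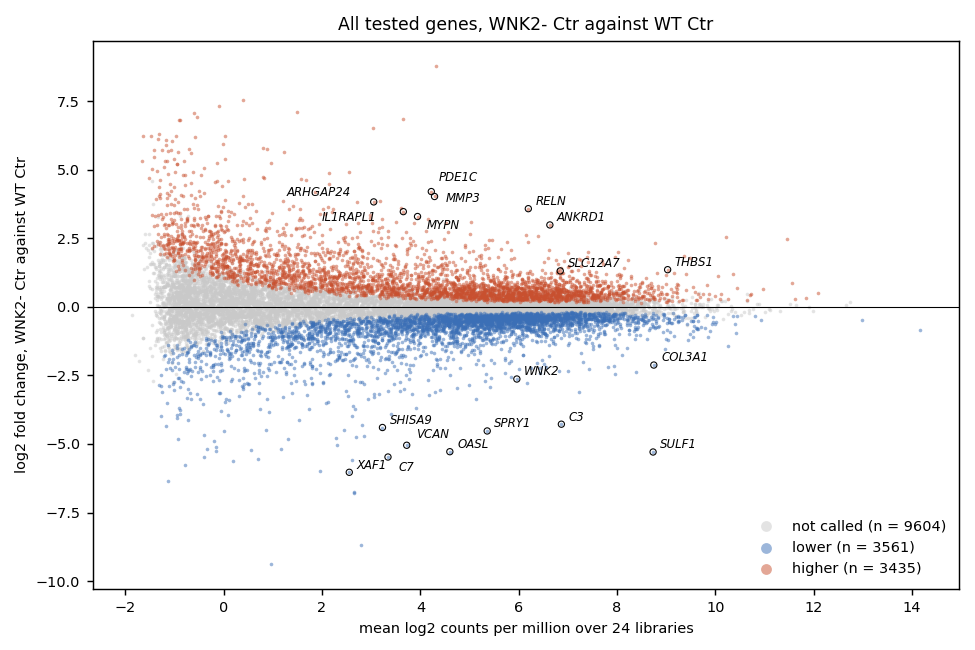
Log2 fold change of WNK2- Ctr against WT Ctr (vertical) by mean log2 CPM over the 24 libraries (horizontal), 1 point per tested gene, with 3435 genes called higher in red, 3561 called lower in blue and 9604 not called in grey. The circled genes are named in the text, from PDE1C and MMP3 at the top to C7 and XAF1 at the bottom.

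In the WNK pathway, 5 rose and 4 fell of 18 tested members, with a median log2 fold change of −0.080 beside 0.0020 over all tested genes. Among the cotransporters that let chloride leave the cell, 1 exporter rose strongly. SLC12A7, which encodes the potassium-chloride exporter KCC4, stood at 1651, 1041, 1426 and 1738 in WT Ctr and 3732, 3513, 3465 and 3806 in WNK2- Ctr (log2 fold change 1.31 ± 0.13 SE, edgeR adjusted p = 7.99e-09). All WNK2- Ctr libraries lay above all WT Ctr libraries. SLC12A7 is at the end of the short arm of chromosome 5, in the most strongly raised stretch of genes described further on. The exporter KCC1 (SLC12A4) rose by less (0.30, edgeR adjusted p = 0.018) and did not pass without WT Ctr replicate 2. KCC2 (SLC12A5), the neuronal exporter, had 131 ± 39.3 and 105 ± 3.30 normalized counts (SD, n = 4 each) and was not called (−0.32, edgeR adjusted p = 0.195).

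The importer NKCC1 (SLC12A2), which WNK signalling activates, rose from 629, 642, 968 and 885 to 984, 1141, 1171 and 1207 (log2 fold change 0.53 ± 0.16 SE, edgeR adjusted p = 0.0101), again without overlap. NEDD4L, a ubiquitin ligase of ion channels and transporters, rose from 1234, 1421, 1441 and 1528 to 3197, 3213, 3189 and 3269 (log2 fold change 1.19 ± 0.11 SE, edgeR adjusted p = 2.96e-09). SGK1, a kinase that acts with WNKs on sodium transport, fell (−0.29, edgeR adjusted p = 0.0044), and so did CAB39L, a scaffold of SPAK and OSR1 (−0.66, 6.65e-04). Of the other WNK kinases only WNK4 was called, from 457, 394, 336 and 487 to 575, 569, 594 and 609.8 (log2 fold change 0.49 ± 0.12 SE, edgeR adjusted p = 0.00238).

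The effector kinases were not called. STK39 had 1005 ± 73.3 normalized counts in WT Ctr and 1129.8 ± 36.9 in WNK2- Ctr (0.17, edgeR adjusted p = 0.175), and OXSR1 had 2777 ± 237 and 3140.3 ± 103 (0.18, 0.113; SD, n = 4 for each). WNK1 (0.30, 0.06), WNK3 (−0.27, 0.184), CAB39 (−0.091, 0.531) and the ligase subunits KLHL2 (−0.069, 0.584) and CUL3 (−0.20, 0.104) did not pass either. SLC12A1, the renal importer, was near 0 in all the compared libraries but WT Ctr replicate 2, which held 29.6. Against WNK2 trans Ctr the log2 fold changes were 1.58 for SLC12A7, 0.61 for SLC12A2, 2.00 for NEDD4L and 0.041 for SLC12A4, the last of which was not called there.

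**Figure D2:**
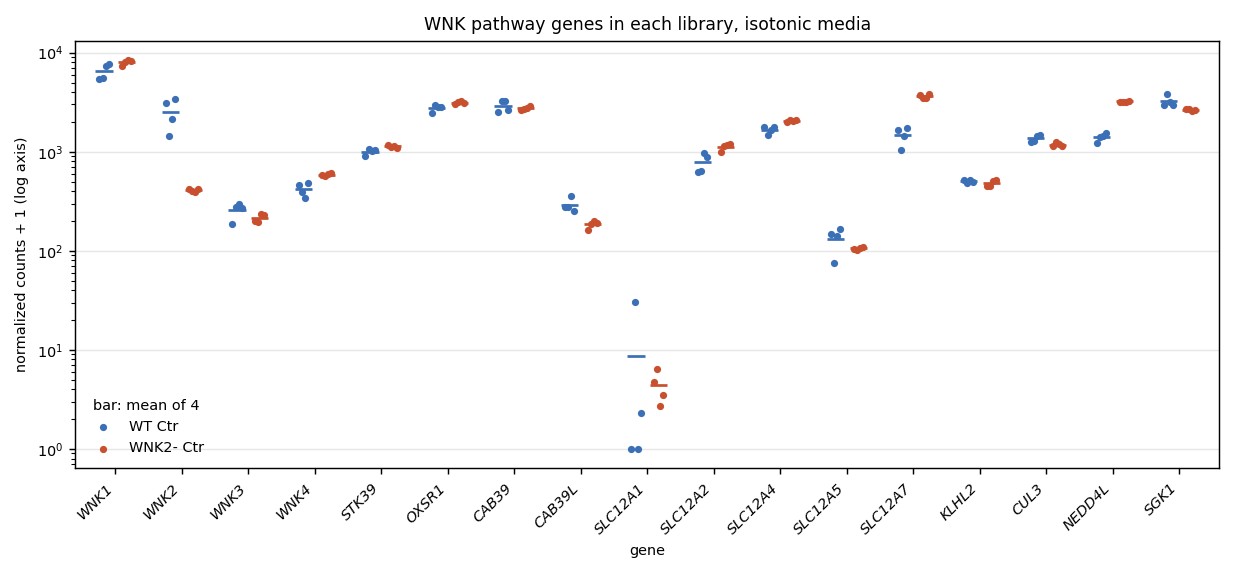
Normalized counts plus 1 (log axis) of 17 of the 18 tested WNK pathway genes in each library, with WT Ctr in blue, WNK2- Ctr in red and a bar at the mean of 4. The 4 WNK2- Ctr libraries of WNK2 lie at 388 to 417, below the WT Ctr libraries at 1441 to 3409, and those of SLC12A7 and NEDD4L lie above all WT Ctr libraries.

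Genes of tonicity and cell volume moved both ways, 5 rose and 4 fell of 16 tested. LRRC8E, a subunit of the volume-regulated anion channel, was 41.0, 41.4, 31.4 and 34.5 in WT Ctr and 91.0, 92.1, 86.2 and 102 in WNK2- Ctr (log2 fold change 1.32 ± 0.19 SE, edgeR adjusted p = 3.53e-06); another gene overlaps much of its exons, so its reads may be shared. Among the 4 tested subunits of that channel 2 rose, and LRRC8A (−0.029) and LRRC8D (−0.026) were not called. NFAT5, the transcription factor of this list, was not called either (0.43). The betaine transporter SLC6A12 rose (1.23, edgeR adjusted p = 5.79e-04), though not against WNK2 trans Ctr (0.28). The water channel AQP3 (−1.34) and the stretch-gated channel PIEZO2 (−0.62) fell. PIEZO2 read 4399.99, 4987, 6746 and 5960.4 in WT Ctr and 2829, 3671, 4138 and 3724 in WNK2- Ctr, and under sorbitol its difference between clone and WT was larger, −2.03.

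The 6 largest rises among called protein-coding genes without overlap, whose mean log2 CPM was 3 or more, were in PDE1C, MMP3, ARHGAP24, RELN, IL1RAPL1 and MYPN. PDE1C, a calcium- and calmodulin-dependent phosphodiesterase of cyclic nucleotides, had 50.6, 40.3, 53.0 and 66.4 normalized counts in WT Ctr and 790.2, 1008, 1026 and 1045 in WNK2- Ctr (log2 fold change 4.20 ± 0.24 SE, edgeR adjusted p = 7.45e-13), an 18.4-fold rise. RELN, the secreted glycoprotein reelin, rose from 96.5, 103, 136 and 195 to 1451, 1527, 1669.7 and 1679 (log2 fold change 3.58 ± 0.19 SE, edgeR adjusted p = 2.34e-13). Both kept every library of the clone above all 16 WT libraries.

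MMP3, the protease stromelysin, was almost unread in WT Ctr, at 2.41, 4.74, 7.57 and 5.31, and reached 98.5, 89.4, 68.1 and 81.6 in WNK2- Ctr (log2 fold change 4.02 ± 0.31 SE, edgeR adjusted p = 1.14e-10). Under sorbitol its difference between clone and WT was 6.13. ARHGAP24, which inactivates RAC, rose from 27.7, 10.7, 20.6 and 19.9 to 198, 337, 292 and 297 (3.83 ± 0.26 on the log2 scale). MYPN, a sarcomere protein, rose from 67.5, 56.8, 54.1 and 63.7 to 605, 579, 572 and 617 (3.29 ± 0.19), and IL1RAPL1, a synaptic member of the IL-1 receptor family, by 3.47 ± 0.27.

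By the same rule the 6 largest falls were in C7, SULF1, OASL, VCAN, SPRY1 and SHISA9. SULF1, which strips sulfate groups from heparan sulfate outside the cell, was among the better expressed genes of WT Ctr at 5271, 6313, 6069.7 and 5875 and was left at 125, 142, 191 and 142 in WNK2- Ctr (log2 fold change −5.29 ± 0.13 SE, edgeR adjusted p = 5.04e-20), a 39.2-fold fall. C7, a component of the complement attack complex, fell from 118, 118, 94.1 and 85.0 to 2.84, 0.912, 2.59 and 2.50 (log2 fold change −5.48 ± 0.28 SE, edgeR adjusted p = 1.01e-13). SPRY1, a feedback inhibitor of FGF and ERK signalling, fell from 668, 731, 658 and 619.9 to 25.6, 17.3, 47.4 and 24.99 (log2 fold change −4.52 ± 0.16 SE, edgeR adjusted p = 1.92e-16).

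All 6 had every library of the clone below all 16 WT libraries. OASL, an interferon-induced antiviral gene, fell from 808, 1155, 799 and 599 to 18.9, 24.6, 22.4 and 19.99 (log2 fold change −5.28 ± 0.21 SE, edgeR adjusted p = 1.03e-15), and VCAN, the matrix proteoglycan versican, from 139, 153, 229 and 255 to 2.84, 4.56, 4.31 and 10.8 (log2 fold change −5.05 ± 0.33 SE, edgeR adjusted p = 7.45e-12). SHISA9, a modulator of glutamate receptors, fell by 4.399 ± 0.34. The size of these changes differed between media for SULF1 (−5.29 in isotonic media and −6.84 under sorbitol), SPRY1 (−4.52 and −6.80) and OASL (−5.28 and −3.37), each with an edgeR adjusted p for the difference of 7.05e-07, 1.54e-06 and 7.52e-05. Against WNK2 trans Ctr the 12 genes had the same signs, from 4.04 for PDE1C and 4.36 for MMP3 to −7.96 for C7 and −6.87 for SULF1.

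**Figure D3:**
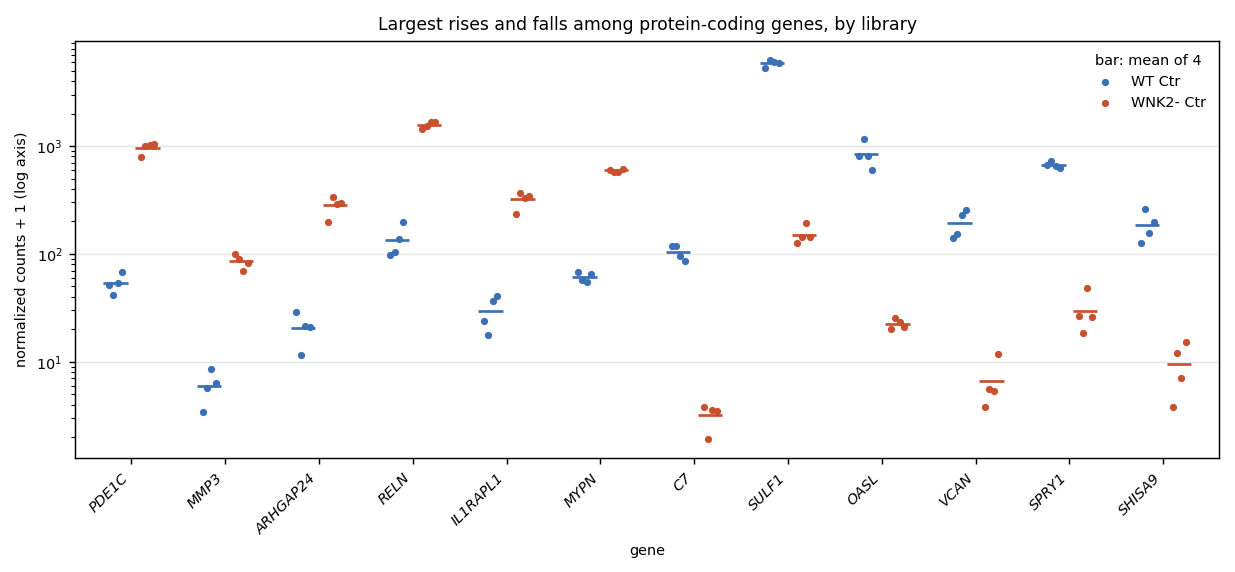
Normalized counts plus 1 (log axis) of the 6 protein-coding genes with the largest rises and the 6 with the largest falls, by library, with WT Ctr in blue, WNK2- Ctr in red and a bar at the mean of 4. In each of the 12 the groups are apart, as for RELN at 96.5 to 195 against 1451 to 1679 and SULF1 at 5271 to 6313 against 125 to 191.

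Among other genes, the unnamed gene ENSG00000227706 on chromosome 6 held 0, 0, 3.25 and 0 in WT Ctr and 463, 469.7, 491 and 384 in WNK2- Ctr, and the long non-coding RNA LINC03061 0, 1.18, 0 and 1.33 and 74.9, 64.8, 84.5 and 39.2. LINC02582 had no count in WT Ctr and 15.2, 13.7, 12.9 and 15.8 in WNK2- Ctr, at least 16.1-fold higher against a floor of 3 counts over the WT Ctr group. The largest falls in this class were in ENSG00000254337 (−2.63 ± 0.15), ENSG00000276855 (−1.63 ± 0.24) and SOD2, the mitochondrial superoxide dismutase, which fell from 7054, 8326, 7193 and 6251 to 2267, 1977, 2218 and 2155 (log2 fold change −1.74 ± 0.084 SE, edgeR adjusted p = 3.03e-14). The identifier of SOD2 in these files is not in the annotation used here for positions, which is why it is counted among the genes with no class.

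More cartilage matrix genes were lower than higher in the clone. Of the proteoglycans and glycoproteins 4 rose and 12 fell of 28 tested, with a median of −0.40. The counts were 4 higher and 20 lower against WNK2 trans Ctr, with a median of −1.06. All 6 called proteoglycans and link proteins fell. LUM, the collagen-binding proteoglycan lumican, fell from 106, 172, 160.1 and 92.9 to 5.68, 2.74, 2.59 and 0 (log2 fold change −5.58 ± 0.36 SE, edgeR adjusted p = 4.59e-12), and DCN, decorin, had 13.3, 13.03, 5.41 and 6.64 in WT Ctr and 0, 0, 0 and 0.833 in WNK2- Ctr.

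ACAN, the core protein of aggrecan, was low to begin with at 77.2, 17.8, 68.2 and 75.7, and was 16.1, 12.8, 11.2 and 12.5 in WNK2- Ctr (log2 fold change −2.17 ± 0.39 SE, edgeR adjusted p = 7.53e-05). WT Ctr replicate 2 lay near the WNK2- Ctr libraries, and without it the log2 fold change was −2.48. HAPLN1, which links aggrecan to hyaluronan, changed by −2.56. Of the glycoproteins, THBS1 (thrombospondin) rose from 6692, 3427, 8279.7 and 10879 to 15132, 18461, 20085 and 21182 (log2 fold change 1.35 ± 0.26 SE, edgeR adjusted p = 1.58e-04), and FBLN5 rose by 1.12, a call lost without WT Ctr replicate 2 (adjusted p = 0.0832). FN1, fibronectin (−0.86), COMP (−1.32) and POSTN (−1.40) fell. In bulk RNA, fewer cells of a kind and less RNA per cell cannot be told apart.

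The collagens were split, 10 rose and 12 fell of 34 tested with a median of −0.081. With WNK2 trans Ctr as the reference 6 were higher and 19 lower (median −0.63). COL2A1, the collagen that marks cartilage, had 115, 54.5, 67.1 and 94.3 normalized counts in WT Ctr and 4.74, 5.47, 6.03 and 8.33 in WNK2- Ctr (log2 fold change −3.71 ± 0.29 SE, edgeR adjusted p = 1.40e-10). COL3A1, a fibrillar collagen of soft connective tissue and far more abundant here, fell from 8184, 8125, 8544 and 7986 to 1807, 1859.7, 2037 and 1840.1 (log2 fold change −2.12 ± 0.088 SE, edgeR adjusted p = 1.71e-15). COL8A2 changed by −3.12 ± 0.25 and COL14A1 by −2.13. The rises were in transmembrane and minor collagens such as COL13A1 (1.54 ± 0.17) and COL17A1 (1.65 ± 0.57, not called without WT Ctr replicate 2), and in 4 fibrillar collagens, COL27A1 (1.22), COL5A3 (1.21), COL5A1 (0.47) and COL24A1. COL24A1 was near 0, at 1.21, 0, 0 and 0 normalized counts in WT Ctr and 6.63, 8.21, 5.17 and 5.83 in WNK2- Ctr, so no fold is given for it.

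Of the matrix proteases and their inhibitors 8 rose and 15 fell of 32 tested (median −0.22), and 7 were higher and 18 lower against WNK2 trans Ctr. MMP13, the main collagenase of cartilage, fell from 223, 224, 264 and 249.6 to 36.0, 56.5, 69.0 and 54.1 (log2 fold change −2.15 ± 0.17 SE, edgeR adjusted p = 2.09e-10). ADAMTS5, an aggrecanase, fell from 145, 122, 197 and 227 to 24.6, 44.7, 44.0 and 38.3 (log2 fold change −2.18 ± 0.25 SE, edgeR adjusted p = 1.23e-07), and so did the other aggrecanase ADAMTS4 (−2.32). ADAMTS3, which trims procollagen, fell from 128, 163, 186 and 115 to 6.63, 7.30, 15.5 and 7.497 (−3.98 ± 0.29). HTRA1, a secreted serine protease, fell from 2656, 3222, 2404 and 2309.8 to 557, 519, 540.5 and 474 (−2.34 ± 0.10). The gelatinase MMP9 was not called (−0.22 ± 0.21, edgeR adjusted p = 0.405).

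The ADAMTS family as a whole was even, with 6 members higher and 6 lower of 15. ADAMTS17 rose from 3.62, 34.3, 14.1 and 18.6 to 119, 122, 151 and 118 (2.85 ± 0.32). MMP3 was the only one of 11 tested MMPs that rose, and 5 fell. Of the collagen-modifying enzymes 5 rose and 4 fell of 16 tested. The prolyl hydroxylase P3H2 rose from 1294, 1564, 1424 and 1389 to 2658, 2795, 2819 and 2746 (0.96 ± 0.074) and the lysyl oxidase LOXL4 by 1.496, while P4HA2 (−0.48) and LOXL3 (−0.58) fell. Relative to WNK2 trans Ctr 5 of these enzymes were higher and 10 lower.

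Hyaluronan and heparan sulfate genes fell more often than they rose (5 rose and 9 fell of 25 tested, median −0.13, and 7 higher and 12 lower against WNK2 trans Ctr). Both extracellular sulfatases fell, SULF1 by the amount given above and SULF2 as well (−2.39). CEMIP, which takes part in hyaluronan breakdown, fell from 383, 276, 454 and 567 to 27.5, 48.3, 36.2 and 50.8 (log2 fold change −3.36 ± 0.26 SE, edgeR adjusted p = 1.62e-10), and the hyaluronan synthase HAS2 changed by −3.09 while HAS3 rose by 1.02. GPC4, a glypican, rose from 19.3, 11.8, 9.74 and 21.2 to 143, 159.6, 146 and 137 (3.24 ± 0.29).

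The transcription factors of cartilage and mesenchyme moved both ways (9 rose and 7 fell of 26 tested). RUNX2, a factor of hypertrophic chondrocytes and bone, fell from 669, 815, 857 and 787 to 384, 439.6, 439 and 486 (log2 fold change −0.84 ± 0.11 SE, edgeR adjusted p = 1.59e-06), and its difference under sorbitol was larger, −1.73. SOX4 fell from 2231, 2743, 2008 and 1908 to 483, 568, 584 and 519.8 (−2.04 ± 0.10), and the limb mesenchyme factor PRRX2 changed by −2.02 ± 0.21. FOXO1 (1.35) and BARX1 (1.30) rose against WT Ctr, but against WNK2 trans Ctr they were at −0.065 and −0.14 and not called.

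Inflammatory genes were lower on balance. Of chemokines, cytokines and their receptors 7 rose and 16 fell of 36 tested (median −0.37), and 10 were higher and 21 lower against WNK2 trans Ctr. CCL2, which attracts monocytes, fell from 844, 971, 800.5 and 686 to 122, 161, 138 and 119.95 (log2 fold change −2.61 ± 0.14 SE, edgeR adjusted p = 3.10e-13). CSF3, the granulocyte growth factor, fell from 361, 227, 176 and 258 to 19.9, 17.3, 16.4 and 24.99 (log2 fold change −3.69 ± 0.27 SE, edgeR adjusted p = 5.19e-11). The neutrophil-attracting CXCL1 (−2.05), CXCL2 (−1.54), CXCL3 (−2.09) and CXCL6 (−2.30) fell together, as did IL6 (−1.74), which was 1289, 1660.3, 1071 and 1191 in WT Ctr and 391, 411, 369 and 389.8 in WNK2- Ctr. CXCL1, CXCL2 and CXCL3 are close copies, so reads may be shared among them.

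CXCL8, another neutrophil attractant, did not keep its direction across comparisons. It stood at 1184, 1869.9, 1523 and 1313 in WT Ctr and 716, 726, 697 and 776 in WNK2- Ctr (log2 fold change −1.01 ± 0.13 SE, edgeR adjusted p = 4.57e-07), without overlap. Relative to WNK2 trans Ctr, however, it was higher in WNK2- Ctr (1.48, edgeR adjusted p = 9.57e-10), and under sorbitol it was higher in the clone as well (0.78). The rises included IL1B (2.43) and IL1A (1.35), the decoy receptor IL13RA2, from 3.62, 7.11, 5.41 and 10.6 to 46.4, 33.7, 51.7 and 59.1 (2.84 ± 0.30), and CCL26 (2.53 ± 0.50).

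NF-kB genes followed the same pattern (4 rose and 11 fell of 25 tested, median −0.24), and of its inhibitors and feedback genes 6 of 8 fell and none rose. NFKBIZ, an inhibitor-like cofactor, fell from 1672, 2113, 2091 and 1837 to 430.2, 443, 464 and 469 (log2 fold change −2.09 ± 0.088 SE, edgeR adjusted p = 1.94e-15). NFKBIA, the inhibitor of NF-kB in the cytoplasm, fell by 1.09, and TNFAIP3, the enzyme A20 (−1.25), and BCL3 (−1.41) fell too. The kinase MAP3K14 rose (0.78 ± 0.10). IKBKG also rose (0.66), though its adjusted p was 0.222 against WNK2 trans Ctr. RIPK2, a kinase downstream of NOD receptors, was not called (−0.077 ± 0.11, edgeR adjusted p = 0.596). Against WNK2 trans Ctr 6 NF-kB genes were higher and 8 lower, with a median of −0.058.

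The promoters of several of these genes hold the letters of an NF-kB site. RefSeq promoters on GRCh38.p14, from 250 bases before to 50 after the gene start, were searched on both strands for GGG, then any 2 bases, then TTTCC. It was found in 7 of 26 matched chemokine and cytokine genes and 7 of 21 NF-kB genes, beside 1.92% of all 27305 promoters. Of the chemokine and cytokine genes 5 of 13 that fell, 0 of 6 that rose and 2 of 7 not called held it. Among the 5 were the close copies CXCL1, CXCL2 and CXCL3, whose matches are not independent of each other. Of the NF-kB genes 4 of 8 that fell, 2 of 4 that rose and 1 of 9 not called held it. The sequences of 6 fallen genes with a match are shown 5′ to 3′ on the strand of the gene, with the match in capitals. These genes, and list members named here and elsewhere besides the most changed ones, were chosen after the values were seen.
CXCL1 (chr4:73869304-73869333, + strand): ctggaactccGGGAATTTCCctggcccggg
CXCL2 (chr4:74099254-74099283, - strand): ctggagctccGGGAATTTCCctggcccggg
CXCL3 (chr4:74038749-74038778, - strand): ctggagctccGGGAATTTCCctggcccggc
CXCL6 (chr4:73836578-73836607, + strand): cctgagttcaGGGAATTTCCccagcatccc
IL6 (chr7:22727117-22727146, + strand): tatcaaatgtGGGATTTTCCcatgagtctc
NFKBIZ (chr3:101827757-101827786, + strand): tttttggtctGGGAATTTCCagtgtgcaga
A match is a description of the letters, not of binding.

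The interferon-induced genes moved almost wholly in 1 direction. Of 46 tested 30 fell and 1 rose, with a median of −0.67, and 4 were higher and 27 lower against WNK2 trans Ctr (median −0.55). XAF1, an interferon-induced gene of cell death, went from 74.8, 55.7, 121 and 69.0 to 0, 2.74, 0 and 1.67 (log2 fold change −6.03 ± 0.47 SE, edgeR adjusted p = 1.79e-10); another gene overlaps part of its exons. IFI44 was 825, 1627, 1359.8 and 936 in WT Ctr and 163, 140.5, 151 and 167 in WNK2- Ctr (−2.93 ± 0.16), and BST2, tetherin, 344, 373, 264 and 247 and 76.7, 58.4, 78.4 and 66.6 (−2.13 ± 0.29).

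Of the factors of interferon signalling, IRF7 (−1.14) and STAT2 (−0.79) fell, and so did the RNA sensor IFIH1 (−0.999). TRIM25, a ubiquitin ligase of that sensing pathway, was the only member that rose (0.54 ± 0.11). Leaving out the members inside the shifted stretches of chromosomes described below, 25 fell and 1 rose of 40, with a median of −0.46.

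The letters of an interferon response site, GAAA, any 2 bases and GAAA again on either strand, were in 22 of 33 matched promoters of these genes (66.7%), beside 3.65% of all promoters. They were in 14 of 21 that fell and 8 of 11 that were not called. The median log2 fold change was −0.45 with and −0.79 without a match. The sequences of 4 fallen genes are shown in the same way, and for IFI44 the match reads on the other strand.
IFI44 (chr1:78649761-78649790, + strand): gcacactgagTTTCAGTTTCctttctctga
BST2 (chr19:17405741-17405770, - strand): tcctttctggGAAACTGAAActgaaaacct
DDX60 (chr4:168318821-168318850, - strand): gtgctgaaggGAAACTGAAAcctaagtgct
ISG15 (chr1:1013374-1013403, + strand): catgcctcggGAAAGGGAAAccgaaactga
DDX60, a helicase, had a log2 fold change of −1.92 and ISG15, a ubiquitin-like protein, of −0.86.

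MHC class I genes fell without exception among those called, 11 of 17 (median −0.65), and 10 were lower and 0 higher against WNK2 trans Ctr. HLA-F fell from 188, 159.9, 119 and 126 to 48.3, 47.4, 35.3 and 42.5 (−1.77 ± 0.21) and the immunoproteasome subunit PSMB9 from 500.4, 474, 339.7 and 377 to 160.1, 138, 137 and 143 (−1.55 ± 0.16). B2M, the light chain encoded on another chromosome, fell by 1.09. Of the 17 tested genes 8 lie in stretches of neighbouring genes that were shifted as a whole, and each of these fell. Outside such stretches 3 of 9 fell. HLA genes are variable and alike, and their counts are uncertain for that reason.

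Complement genes moved both ways. C3, the hub of the cascade, fell from 5357, 5193, 5027 and 5617 to 262, 269, 284 and 276 (log2 fold change −4.28 ± 0.10 SE, edgeR adjusted p = 3.32e-20), and C7, C1R (−2.26), C1S (−1.95) and C4A (−1.64) fell too. The regulators CD59, from 12.1, 3.55, 7.57 and 6.64 to 30.3, 43.8, 41.4 and 42.5 (2.39 ± 0.37), CLU (1.51) and CD55 (0.80), which protect cells from complement, rose. The regulator CD46 fell (−0.73), and the components C2 (0.88) and MASP2 (1.73, a call lost without WT Ctr replicate 2) rose. The list as a whole had 5 higher and 6 lower of 17. Prostaglandin genes fell, 7 of 13 with 0 risen (median −0.80), and 1 higher and 7 lower against WNK2 trans Ctr. PTGES, a prostaglandin E synthase, went from 805, 636, 558 and 706 to 103, 119, 109 and 96.6 (log2 fold change −2.66 ± 0.15 SE, edgeR adjusted p = 6.19e-13), and PTGS2, the inducible cyclooxygenase, changed by −2.47. The receptor PTGFR went from 175, 142, 163 and 153 to 22.7, 21.9, 23.3 and 21.7 (−2.81 ± 0.19). Of TNF family ligands, receptors and caspases 3 rose and 10 fell of 21 tested. CD40 changed by −2.39 ± 0.17 and TNFSF10 (TRAIL) by −2.39 ± 0.41, and TNFRSF11A, the receptor RANK, rose from 13.3, 5.92, 9.74 and 11.9 to 46.4, 72.1, 61.2 and 73.3 (2.62 ± 0.33).

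**Figure D4:**
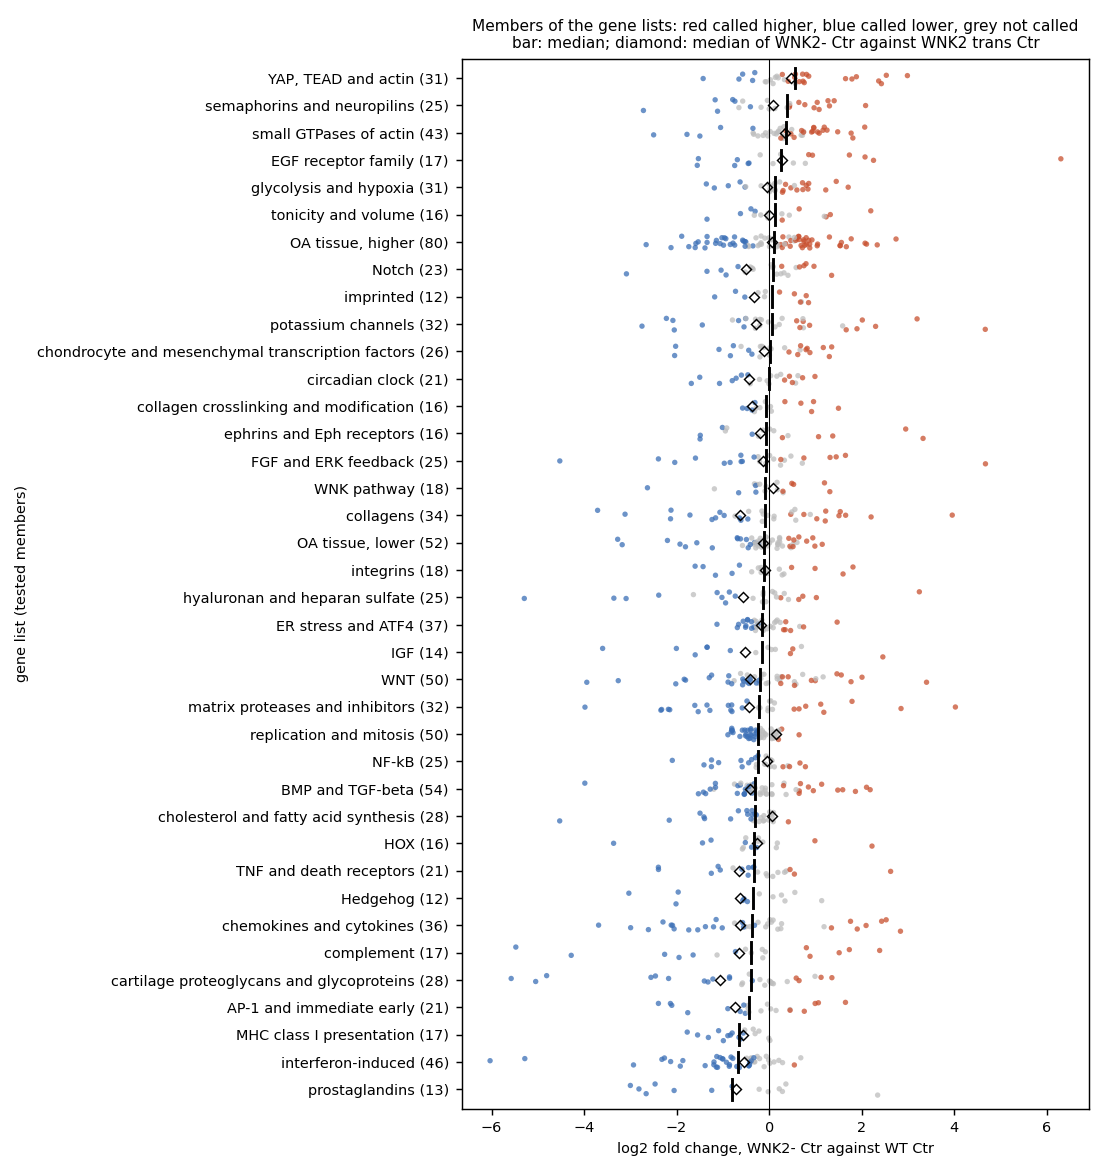
Log2 fold change of WNK2- Ctr against WT Ctr for each tested member of the gene lists with 5 or more tested members, with the number tested in brackets, red for called higher, blue for called lower and grey for not called. The bar is the list's median and the diamond the median against WNK2 trans Ctr; the prostaglandin, interferon-induced and MHC class I lists lie lowest, and the YAP, TEAD and actin list highest.

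Signalling pathways of cartilage and limb growth had members in both directions. Of BMP and TGF-beta genes 12 rose and 18 fell of 54 tested (median −0.32), and 11 higher and 30 lower against WNK2 trans Ctr. Of the ligands BMP2 fell from 76.0, 67.5, 61.7 and 85.0 to 37.9, 21.0, 28.4 and 20.8 (log2 fold change −1.42 ± 0.19 SE, edgeR adjusted p = 1.75e-06), while BMP4 (1.59) and BMP7 (0.65) rose. The BMP antagonist noggin (NOG) rose from 41.0, 3.55, 22.7 and 65.0 to 168, 161, 114 and 148 (log2 fold change 2.18 ± 0.36 SE, edgeR adjusted p = 2.42e-05), FSTL1 rose by 2.10 ± 0.23 and gremlin (GREM1) by 1.13. Chordin (CHRD), another antagonist, fell (−1.53 ± 0.38). TGF-beta receptors TGFBR1 (−0.54) and TGFBR2 (−0.62) fell. SMAD6, an inhibitory SMAD, rose (1.86) and SMAD1, which carries BMP signals, fell (−1.16).

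In the WNT pathway 11 rose and 19 fell of 50 tested (median −0.20), and 10 higher and 25 lower against WNK2 trans Ctr. The ligand WNT5B rose from 309, 229, 219.6 and 339.8 to 1109.5, 1195, 1029 and 1062 (log2 fold change 2.01 ± 0.14 SE, edgeR adjusted p = 1.51e-11). WNT10B, at low counts, was 36.2, 11.8, 17.3 and 23.9 in WT Ctr and 0.947, 1.82, 1.72 and 0.833 in WNK2- Ctr (−3.94 ± 0.56). Of 16 receptors 9 fell, FZD7 (−1.30) and LGR6 (−2.02) among them, and ROR1 rose (0.996). The nuclear factor LEF1 fell from 47.0, 45, 33.5 and 39.8 to 2.84, 4.56, 2.59 and 6.66 (−3.26 ± 0.42), and NKD2, a feedback inhibitor at low counts on the raised end of chromosome 5, rose (3.40 ± 0.62).

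Hedgehog genes fell only, 6 of 12 (median −0.34), with 1 higher and 8 lower against WNK2 trans Ctr. The coreceptors GAS1, from 541, 333, 293 and 433 to 44.5, 50.2, 52.6 and 47.5 (log2 fold change −3.03 ± 0.22 SE, edgeR adjusted p = 4.07e-11), and BOC, from 207, 204, 185 and 207 to 44.5, 52.0, 53.4 and 48.3 (−2.01 ± 0.16), led, and the pathway's target factor GLI1 changed by −1.97. In the Notch list 6 rose and 5 fell of 23 tested. The target HEY1 fell from 219, 288, 198 and 169.9 to 24.6, 26.4, 23.3 and 28.3 (−3.09 ± 0.20) and so did the ligand DLL1 (−1.34), while MFNG (1.35) and MAML2 (0.97, not called against WNK2 trans Ctr) rose.

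In the FGF list the called FGF genes rose and the called receptors fell (6 rose and 10 fell of 25 tested in all). The intracellular FGF13, at 1.21, 0, 1.08 and 6.64 in WT Ctr and 50.2, 86.6, 46.5 and 44.1 in WNK2- Ctr (log2 fold change 4.67 ± 0.68 SE, edgeR adjusted p = 5.21e-06), FGF2 (1.45) and FGF5 (1.31) rose, and 4 of 5 receptors fell, from FGFR2 (−2.04) to FGFR1 (−0.61). EGR1, an immediate early gene of ERK signalling, fell from 2057, 1506, 1576 and 2169 to 319, 305, 349 and 416 (log2 fold change −2.39 ± 0.22 SE, edgeR adjusted p = 3.44e-09), with EGR2 (−1.76), EGR3 (−2.13) and FOS (−2.11). Other AP-1 members rose, JUN from 1971, 1175, 1227 and 1819.98 to 3749, 3137, 2882 and 3165 (1.06 ± 0.18), FOSL1 from 1970.3, 933, 963 and 1870.4 to 5329.7, 4472, 3718 and 4445 (1.65 ± 0.21) and FOSL2 by 0.99. The AP-1 and immediate early list had 5 higher and 8 lower of 21, and 4 higher and 12 lower against WNK2 trans Ctr.

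In the EGF receptor family 6 rose and 6 fell of 17 tested. The ligand HBEGF rose from 292, 319.7, 230.4 and 291 to 1429.8, 1375, 1209 and 1386 (log2 fold change 2.25 ± 0.10 SE, edgeR adjusted p = 4.18e-15), EGF by 2.07 ± 0.30 and the receptor EGFR by 0.94. ERBB3 (−1.55) and the inhibitor LRIG3, from 1193, 1606, 1569.6 and 1264 to 443, 472, 540.5 and 494 (−1.53 ± 0.11), fell. IGF binding proteins fell in 5 of 6 cases. IGFBP2 went from 264, 144, 143 and 198 to 11.4, 26.4, 7.76 and 15.8 (log2 fold change −3.60 ± 0.33 SE, edgeR adjusted p = 2.56e-09) and IGFBP5 from 2148, 1622, 1731 and 1764 to 425, 464, 488 and 431 (log2 fold change −2.01 ± 0.13 SE, edgeR adjusted p = 5.44e-12). IGF1R was called higher (0.51), but not without WT Ctr replicate 2 (adjusted p = 0.144) and with the sign turned against WNK2 trans Ctr (−0.33, adjusted p = 0.15). IRS1 (0.46) was likewise at −0.072 there and not called.

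Genes of the actin cytoskeleton rose more often than they fell in isotonic media. In the list of YAP, TEAD and actin genes 17 rose and 5 fell of 31 tested (median 0.55), and 14 higher and 7 lower against WNK2 trans Ctr (median 0.46). Between the clone and the parental line under sorbitol 9 were higher and 10 lower (median −0.083). Of 8 targets of the coactivator YAP 6 rose and 0 fell. ANKRD1 rose from 312, 271, 308 and 508 to 3102, 2775, 2447 and 2746 (log2 fold change 2.99 ± 0.14 SE, edgeR adjusted p = 3.03e-14), tissue factor (F3) by 2.37, AJUBA by 1.88 and CCN1 by 0.73. Of the contractile genes TAGLN (2.42), CALD1 (1.79), FLNA (0.85) and MYH9 (0.65) rose, and MYH11 fell (−1.43 ± 0.31). MYOCD, a coactivator of smooth muscle genes, rose from 6.03, 15.4, 4.33 and 19.9 to 54.0, 62.9, 94.8 and 48.3 (2.53 ± 0.37). WWTR1 (TAZ), a coactivator related to YAP, fell from 3469, 4709.7, 4518 and 3546 to 2393, 2509, 2876 and 2544 (−0.65 ± 0.11).

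Of the small GTPases that steer actin, their exchange factors and effectors 19 rose and 5 fell of 43 tested (median 0.36), and 19 higher and 6 lower against WNK2 trans Ctr. Of 14 exchange factors, which load GTPases with GTP, 9 rose, DOCK2 from 44.6, 43.8, 48.7 and 69.0 to 215, 224, 219 and 202 (log2 fold change 2.06 ± 0.16 SE, edgeR adjusted p = 1.85e-10), TRIO by 1.77 and PREX1 by 1.19. For DOCK2 the difference was 0.28 under sorbitol and not called there. Of the GTPases RAC2 rose at low counts (1.81) and CDC42 by 1.48, and RHOD (−2.50 ± 0.35) and RND1 (−1.78 ± 0.22) fell. Of integrins 4 rose and 5 fell of 18 tested. ITGA7, a laminin receptor, fell from 643, 413, 429 and 628 to 199.9, 188, 178 and 218 (−1.43 ± 0.16) and ITGA2B fell too (−1.601), while ITGAM (1.81) and ITGB7 (1.596, not called against WNK2 trans Ctr) rose at low counts.

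Guidance genes also moved. In the semaphorin list 11 rose and 6 fell of 25 tested (median 0.39), and 9 higher and 10 lower against WNK2 trans Ctr (median 0.086). SEMA7A rose from 912, 512, 546 and 738 to 3005, 2936, 2489.5 and 3032 (log2 fold change 2.08 ± 0.15 SE, edgeR adjusted p = 3.07e-11) and the receptor PLXNB3 by 1.40 ± 0.26. SEMA3A (−1.12 ± 0.17) and its receptor NRP2 (−1.17 ± 0.19) fell. Of the ephrins and Eph receptors 5 rose and 4 fell of 16 tested. EPHB1 went from 8.44, 2.37, 12.98 and 14.6 to 64.4, 80.3, 64.7 and 89.1 (2.95 ± 0.42) and EPHA2 from 4468, 2803, 3204 and 4655 to 8433, 7944, 7493 and 7808 (1.07 ± 0.13). The ligands EFNB3 (−1.49) and EFNA1 (−1.49) fell.

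Potassium channel genes, which set membrane potential and help cells shed volume, were divided (10 rose and 8 fell of 32 tested). KCNQ3 was 6.03, 1.18, 6.49 and 0 in WT Ctr and 76.7, 97.6, 94.8 and 105 in WNK2- Ctr (log2 fold change 4.67 ± 0.47 SE, edgeR adjusted p = 1.73e-08), and KCNQ5 rose from 85.6, 121, 190.4 and 159 to 448, 628, 583 and 588 (2.01 ± 0.25). KCNN1, a calcium-activated channel, fell from 170.02, 148, 177 and 149 to 31.3, 30.1, 18.96 and 15.8 (−2.75 ± 0.23), and KCNS3 from 79.6, 46.2, 71.4 and 78.3 to 11.4, 21.0, 15.5 and 10.8 (−2.22 ± 0.24).

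Of the circadian clock genes 5 rose and 7 fell of 21 tested, which was 3 and 8 without WT Ctr replicate 2 and 4 higher and 9 lower against WNK2 trans Ctr. Several repressors of the loop fell. BHLHE41 went from 258, 381, 228 and 165 to 83.4, 79.3, 92.2 and 66.6 (log2 fold change −1.68 ± 0.20 SE, edgeR adjusted p = 1.87e-07), BHLHE40 from 2804, 2575, 2299.8 and 2642 to 1533, 1513, 1417 and 1469 (log2 fold change −0.80 ± 0.094 SE, edgeR adjusted p = 1.91e-07), and NR1D1 (−0.46) and NR1D2 (−0.60), the REV-ERB receptors, fell too. For BHLHE41 the difference was −0.074 under sorbitol (edgeR interaction adjusted p = 4.47e-04).

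The repressors CRY1, from 867, 887, 914 and 901 to 1182, 1174, 1290.4 and 1186 (0.44 ± 0.077), and CRY2 (0.50 ± 0.12) rose. Of the activators CLOCK (0.99, edgeR adjusted p = 0.00508) and NPAS2 (0.33, 0.0195) were called higher, and BMAL1 (0.25, 0.0721), BMAL2 (0.16, 0.397) and RORA (0.62, 0.055) were not called. The call of NPAS2 was lost without WT Ctr replicate 2 and without WNK2- Ctr replicate 2, when only the libraries compared were fitted, with the GC and length correction and with a minimum log2 change of 0.3. PER1 (−0.41, 0.0554), PER2 (0.57, 0.0876), PER3 (0.032, 0.906), CIART (−0.045, 0.904), NFIL3 (−0.21, 0.174) and the kinase CSNK1E (−0.0040, 0.993) did not pass. Among outputs, TEF (−0.71), DBP (−1.07) and USP2 (−1.501, not called against WNK2 trans Ctr) fell. CSNK1D rose (0.72), a call lost both without WT Ctr replicate 2 and against WNK2 trans Ctr.

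The result for cell division depended on which isotonic WT group was used. Against WT Ctr 25 of 50 genes of the replication and mitosis list, which includes cell cycle inhibitors, fell and 3 rose (median −0.24). Replication genes had 13 lower and 1 higher of 23 tested (median −0.29). Mitosis genes had 6 lower and 2 higher of 20 (median −0.017), and the inhibitors 6 lower and 0 higher of 7. With WNK2 trans Ctr as the reference 22 were higher and 18 lower (median 0.14). TOP2A, a topoisomerase of dividing cells, stood at 21193, 28283, 33715 and 26601 in WT Ctr and 13671, 14362, 15933 and 15159.8 in WNK2- Ctr (log2 fold change −0.89 ± 0.14 SE, edgeR adjusted p = 9.88e-06), but was not called against WNK2 trans Ctr (−0.31, adjusted p = 0.0667). MKI67, the proliferation marker Ki-67, rose from 8758, 7876, 10815 and 12677 to 14446, 15931, 15918 and 16483 (log2 fold change 0.65 ± 0.14 SE, edgeR adjusted p = 4.50e-04), and the cell cycle inhibitor CDKN1B fell from 2701, 2967, 2172 and 2443 to 1469, 1399, 1410.3 and 1543 (−0.82 ± 0.089). POLE2 was called higher (0.27, adjusted p = 0.0415), a call lost with no filter on low counts and on leaving out, in turn, WT Ctr replicate 1 or 4 or WNK2- Ctr replicate 3 or 4.

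The same held for lipid synthesis, with 1 higher and 14 lower of 28 against WT Ctr (median −0.32) and 7 higher and 9 lower against WNK2 trans Ctr. FADS2, a fatty acid desaturase, went from 7722, 5371, 5688 and 6790.1 to 1350.2, 1478, 1478 and 1414 (log2 fold change −2.16 ± 0.13 SE, edgeR adjusted p = 8.92e-13) and was at −2.02 against WNK2 trans Ctr. SREBF1 (−1.495) and SCD (−1.41) fell, and the sterol enzyme NSDHL rose (0.41).

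Of the glycolysis and hypoxia genes 13 rose and 5 fell of 31 tested, and 9 higher and 10 lower against WNK2 trans Ctr. EPAS1, which encodes HIF-2 alpha, rose from 2424, 2008, 2293 and 2693 to 7751, 7576, 7646 and 7764 (log2 fold change 1.71 ± 0.090 SE, edgeR adjusted p = 1.37e-13), and hexokinase HK2 from 352, 297, 352 and 307 to 899, 881, 880.1 and 910.5 (log2 fold change 1.45 ± 0.10 SE, edgeR adjusted p = 7.45e-12). ENO2 fell from 2425, 2406, 1866 and 2148 to 1075, 860.1, 899 and 1053 (−1.19 ± 0.11) and the carbonic anhydrase CA9 fell as well (−1.36). In the ER stress and ATF4 list 6 rose and 12 fell of 37 tested (median −0.16). Of 17 chaperones 8 fell and 0 rose, and XBP1, a factor of the unfolded protein response, fell from 2272, 2861, 2259 and 2076 to 1463, 1443, 1548 and 1420.3 (log2 fold change −0.69 ± 0.10 SE, edgeR adjusted p = 3.53e-06). Of the ATF4 targets the cystine transporter SLC7A11 (1.47 ± 0.33, not called against WNK2 trans Ctr) and the amino acid transporter SLC7A5 (0.74 ± 0.14) rose, and VLDLR fell (−1.13 ± 0.13).

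HOX genes, which mark body position, had 2 higher and 6 lower of 16 tested, and 17 further members were at 0 in all 24 libraries. HOXA2 fell from 184, 257, 255 and 200.5 to 86.2, 88.5, 76.7 and 79.1 (log2 fold change −1.44 ± 0.17 SE, edgeR adjusted p = 1.91e-07), HOXA3 fell too (−1.26), and HOXD10 rose (0.99). The calls of HOXA3 and HOXD10 were lost against WNK2 trans Ctr. Imprinted genes had 5 higher and 3 lower of 12. MEST, expressed from the paternal copy, went from 10896, 14194, 11871 and 9417 to 5345, 4870.4, 5328 and 4949 (log2 fold change −1.18 ± 0.10 SE, edgeR adjusted p = 1.62e-09) and SGCE by −0.73 ± 0.11. H19 (0.85) and PHLDA2 (0.80) rose, neither of them called against WNK2 trans Ctr. Of 3 tested cancer-testis genes 1 fell and 0 rose.

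The study compiled genes reported as higher or lower in human OA from published datasets, independent of these libraries. Besides OA against healthy cartilage, these included fibronectin-treated chondrocytes of normal cartilage and degraded against intact cartilage of the same patients. Of 80 genes higher in OA 34 rose and 27 fell in WNK2- Ctr (median 0.11), and of 52 genes lower in OA 9 rose and 15 fell (median −0.11). For the other isotonic WT group, WNK2 trans Ctr, the counts were 35 and 28, and 8 and 16. Of the first set AMTN rose from 49.4, 35.5, 24.9 and 43.8 to 261, 248, 249.99 and 264 (log2 fold change 2.74 ± 0.20 SE, edgeR adjusted p = 5.28e-11) and ABI3BP from 27.7, 16.6, 41.1 and 38.5 to 168, 147, 160.3 and 152 (2.33 ± 0.22), and COL3A1 and PTGES fell as given above. Of the second TLN2, a talin, rose (1.15 ± 0.14) and CDC42EP3 as well (0.99 ± 0.30), while the scavenger receptor COLEC12 went from 269, 291, 323 and 259 to 33.2, 29.2, 37.9 and 25.8 (−3.18 ± 0.16) and MFAP2 by −3.27 ± 0.46.

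Part of the changed genes lay in runs along chromosomes. Windows of 51 neighbouring tested genes with a median log2 fold change of at least 0.4 in size were merged into 24 stretches, 12 higher and 12 lower, holding 2281 genes (13.7% of those tested). In the 8 sorbitol libraries of the clone and WT all 24 had a median of the same sign. Inside them 52.5% of genes were called, 495 higher and 702 lower, and outside 40.5%, 2940 higher and 2859 lower. The stretches were chosen on these fold changes, so the isotonic counts inside them are a description. With windows of 25 genes there were 76 stretches with 3635 genes, and with windows of 75 genes 13 with 1740.

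The steepest was on the short arm of chromosome 5 (92151 to 34124528, GRCh38), where 79 genes had a median of 0.80, and 0.76 under sorbitol. Of them 45 rose and 7 fell, and SLC12A7 and NKD2 lie there. The longest run of raised genes was on chromosome 14 (49893092 to 88881078), with 244 genes, 120 higher and 13 lower, and a median of 0.44. The most lowered was on chromosome 9 (470291 to 62900104), with 169 genes and a median of −0.50; WNK2 lies outside it on the long arm. The stretch of chromosome 6 that holds the MHC (27957241 to 34249470) had 138 genes and a median of −0.44.

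Chromosomes 17 and 19 each had 4 lowered stretches, with 488 and 390 tested genes in them. The medians over the whole chromosome were −0.20 for 17, −0.14 for 19 and −0.19 for 6, and 0.25 for 14, 0.16 for 21 and 0.15 for 15. The part of such stretches in the results above was not tested.

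**Figure D5:**
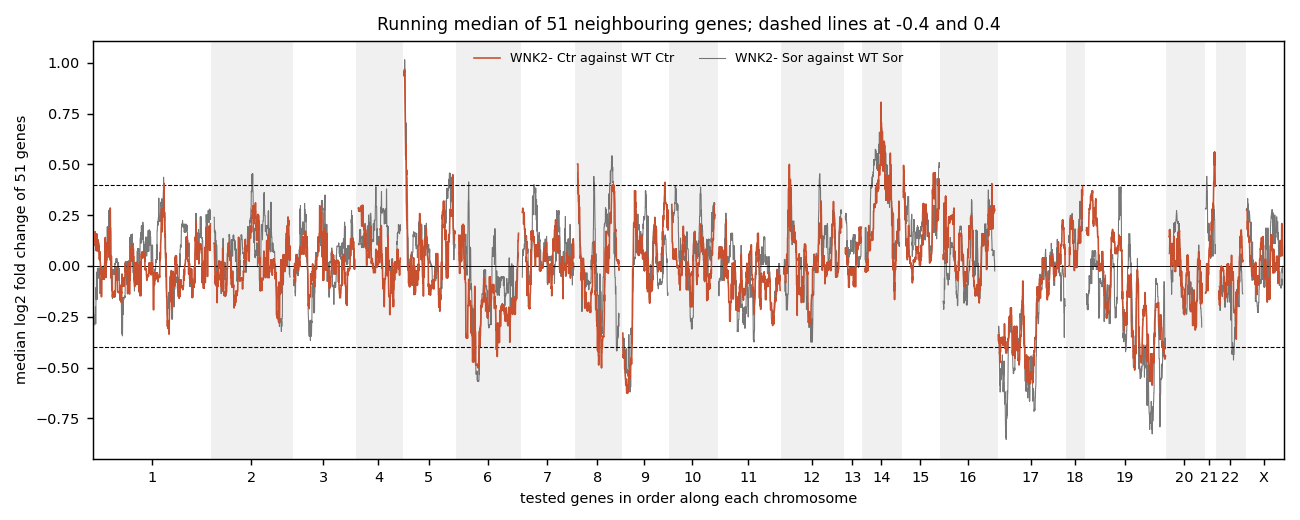
Median log2 fold change of 51 neighbouring tested genes (vertical) along the order of genes on each chromosome (horizontal), for WNK2- Ctr against WT Ctr in red and WNK2- Sor against WT Sor in grey, with dashed lines at −0.4 and 0.4. Both lines rise on chromosomes 5 and 14 and fall on chromosomes 9, 17 and 19.

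Marker genes of chondrocytes and of other cell types were summed per library, as CPM (counts scaled by the library total). The 18 chondrocyte markers summed to 108 to 117 CPM in WT Ctr and 32.3 to 36.1 in WNK2- Ctr. HAPLN1 had by far the most counts of those tested, at means of 1488 and 253 normalized counts, so the sum mostly follows this gene. Of 11 tested 1 rose and 5 fell, and SOX9 and CHAD were at 0 in all 8. The 8 hypertrophic markers summed to 48.8 to 62.2 CPM in WT Ctr and 23.1 to 31.1 in WNK2- Ctr, with COL10A1, IBSP and SPP1 at 0. Fibroblast and stroma markers were far higher, 7225 to 9390.4 CPM in WT Ctr and 6586 to 6963 in WNK2- Ctr, with 8 of 13 tested lower and none higher in WNK2- Ctr.

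Markers of other cells moved as well. The 12 endothelial markers summed to 57.4 to 67.5 CPM in WT Ctr and 80.6 to 97.0 in WNK2- Ctr, with 7 higher and 2 lower of 10. The 14 epithelial markers summed to 618 to 949 CPM in WT Ctr and 964 to 1190.2 in WNK2- Ctr, with 2 higher and 2 lower of 8 tested. Most counted of these was KRT8, at a mean of 8879 normalized counts in WT Ctr and 13055 in WNK2- Ctr. KRT8 (0.56) and KRT7 (1.00) rose, and ESRP1 (−1.16) and ELF3 (−1.52) fell. Smooth muscle markers ranged over 144 to 306 CPM in WT Ctr and 244 to 254 in WNK2- Ctr and adipocyte markers over 179 to 245 CPM in WT Ctr and 155 to 179.7 in WNK2- Ctr. Osteoblast markers summed to 35.3 to 49.0 CPM in WT Ctr and 21.97 to 28.4 in WNK2- Ctr, and skeletal muscle markers to 60.8 to 109 CPM in WT Ctr and 53.9 to 66.9 in WNK2- Ctr. Blood markers were near 0, 9.17 to 12.5 CPM in WT Ctr and 5.97 to 7.54 in WNK2- Ctr, with CD68 and HBB among those at 0, and neural markers likewise, 5.67 to 11.1 CPM in WT Ctr and 6.41 to 8.15 in WNK2- Ctr. The part of these markers in the results above was not tested.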

How the data were processed

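RNA was taken from T/C-28a2 cells, poly(A)-selected and sequenced, and the study analysed 4 biological replicates per group. The authors deposited raw read counts per Ensembl gene, 1 file per library. Per the labels, FastQC 0.11.9, HISAT2 2.2.1, HTSeq 2.0.2 and DESeq2 1.38.3 were used, with GRCh38 as the genome, and the study's methods name other versions of HTSeq and DESeq2. The annotation release and the strand setting are not given in the sources used here, so reads of overlapping genes may be shared. Positions came from GENCODE 29, names from the reference table and promoters from RefSeq.

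The 24 libraries were fitted jointly with edgeR 4.0.16 (R 4.3.3) as 6 group means, after filterByExpr (minimum count 10, minimum total 15) and TMM scaling. Quasi-likelihood p-values were adjusted by Benjamini-Hochberg for 16600 genes, and 0.05 was the threshold. Standard errors were derived from the F statistic. Depth was 14153002 to 22461641 counts in the 8 libraries compared. The p-values rest on the spread between replicates within groups, estimated from all 24 libraries. With only the compared libraries fitted, 5810 genes were called. No pair of replicates agreed within counting noise. The test was checked on simulated data. The simulation held few changed genes and no shifted stretches, unlike the data here, so it does not cover those conditions.

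The genes and lists were chosen with earlier results of these data known. By rule, named genes were the tested WNK pathway genes, the 6 strongest rises and 6 strongest falls of called protein-coding genes whose groups did not overlap (mean log2 CPM 3 or more), the 3 and 3 strongest of other genes, the 2 and 2 strongest called members of each list (mean log2 CPM 0 or more), and genes that define a list or were fixed as named by the study (MMP13, RUNX2, ADAMTS5, CXCL8, SOX9, ACAN, COL2A1, COL10A1 and clock genes). Genes of chromosome Y were not named, and some items are not reported here.

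Settings varied were the scaling (RLE, upper quartile), the filter (none, or 10 counts throughout), fitting only the compared libraries, blocking on replicate number, a minimum log2 change of 0.3, a GC and length correction, thinning to the smallest total, DESeq2 1.42.0, and leaving out each library. The comparison with WNK2 trans Ctr was added after the data were seen.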

Additional observations from a re-analysis of the deposited data

Results flagged for a closer look

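In 18 of 380 groups of 4 examined (the named genes, the totals, the genes with a count and the mitochondrial share), 1 library lay far from the other 3 by Dixon's criterion. Chance alone flags about 1 in 20 groups, which is 19 here, so the number of flags is no more than chance gives. Values are normalized counts unless stated. WT Ctr replicate 2 stood apart in SLC12A1 at 29.6 and the other 3 at 0 to 1.33, ACAN at 17.8 and the other 3 at 68.2 to 77.2, PER2 at 21.3 and the other 3 at 70.3 to 74.3 and the mitochondrial share in percent at 2.21 and the other 3 at 2.99 to 3.09. WT Ctr replicate 3 stood apart in ENSG00000227706 at 3.25 and the other 3 at 0, BOC at 185 and the other 3 at 204 to 207, ITGB7 at 14.1 and the other 3 at 3.55 to 5.31 and HOXD10 at 51.9 and the other 3 at 33.2 to 33.8. WNK2- Ctr replicate 1 stood apart in PDE1C at 790.2 and the other 3 at 1008 to 1045, SLC12A4 at 2009.6 and the other 3 at 2063 to 2073, ITGAM at 29.4 and the other 3 at 14.99 to 16.4, RORA at 186 and the other 3 at 269.8 to 283 and the number of genes with a count at 21629 and the other 3 at 22567 to 22685. WNK2- Ctr replicate 2 stood apart in FGF13 at 86.6 and the other 3 at 44.1 to 50.2. WNK2- Ctr replicate 3 stood apart in ADAMTS17 at 151 and the other 3 at 118 to 122, ADAMTS3 at 15.5 and the other 3 at 6.63 to 7.497, NKD2 at 29.3 and the other 3 at 20.8 to 21.9 and CRY1 at 1290.4 and the other 3 at 1174 to 1186. 

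The difference between the clone and WT differed between isotonic and sorbitol media, by the interaction term of the edgeR fit (adjusted p under 0.05), for 52 named genes. The WT Sor libraries hold little WNK2, as given in the report, so this term rests on their label. The values are the change of the log2 fold change under sorbitol. It was positive for 20: WNK2 (2.88), MMP3 (2.11), OASL (1.91), LEF1 (1.90), CXCL8 (1.80), CCL2 (1.75), C3 (1.72), BHLHE41 (1.61), COL2A1 (1.43), CSF3 (1.34), ABI3BP (1.31), SEMA7A (1.07), MMP13 (1.05), NEDD4L (0.93), CAB39L (0.68), WNT5B (0.65), NPAS2 (0.63), ANKRD1 (0.63), EFNA1 (0.60) and SOD2 (0.59). It was negative for 32: EGR1 (−2.54), SPRY1 (−2.28), GAS1 (−1.87), DOCK2 (−1.78), SLC7A11 (−1.64), CA9 (−1.58), PRRX2 (−1.56), SULF1 (−1.54), ENSG00000254337 (−1.53), COL3A1 (−1.44), PIEZO2 (−1.41), MEST (−1.40), H19 (−1.25), ADAMTS5 (−1.22), IGF1R (−1.18), EFNB3 (−1.11), BOC (−1.11), HTRA1 (−1.06), TNFRSF21 (−1.05), MAML2 (−1.03), IRS1 (−1.02), BMP2 (−0.92), ITGA2B (−0.91), RUNX2 (−0.89), EPAS1 (−0.81), COLEC12 (−0.79), P3H2 (−0.75), SLC7A5 (−0.71), MAP3K14 (−0.70), SOX4 (−0.65), FADS2 (−0.59) and LOXL3 (−0.54). For 9 of them the fold change had another sign in each medium, WNK2 (−2.63 and 0.25), CAB39L (−0.66 and 0.019), CXCL8 (−1.01 and 0.78), MAML2 (0.97 and −0.063), IGF1R (0.51 and −0.67), IRS1 (0.46 and −0.56), SLC7A11 (1.47 and −0.17), TNFRSF21 (0.54 and −0.51) and H19 (0.85 and −0.40), given for isotonic and sorbitol media in that order. The causes were not tested.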

How the results depend on the processing

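Without leaving out a library, the other settings gave 5739 to 8510 calls in isotonic media beside 6996, except a minimum log2 change of 0.3, with 4378 (2205 higher, 2173 lower). That setting gave 2553 higher under sorbitol and 522 for the interaction (189 positive, 333 negative). Positive interaction calls numbered 372 with no filter and 1015 with DESeq2. The GC and length correction gave 3451 higher and 5059 lower and moved the median of all genes to −0.081. Genes of the clone beyond the WT libraries numbered 3400 without the WNK2 trans groups, and stretches held 3635 genes with windows of 25. With 1 library left out, calls ran over 6155 to 6963 in isotonic media and over 849 to 1908 for the interaction (positive 348 to 905, negative 501 to 1005). The interaction fell most without WNK2- Ctr replicate 2 (944) and without WNK2- Sor replicate 3 (849). Its positive calls moved past 1.5 times without WT Ctr replicate 2 (387), without WNK2- Ctr replicate 2 (361), without WNK2- Ctr replicate 3 (389), without WNK2- Ctr replicate 4 (376), without WT Sor replicate 2 (428), without WT Sor replicate 3 (410), without WT Sor replicate 4 (434), without WNK2- Sor replicate 1 (429) and without WNK2- Sor replicate 3 (348). Its negative calls did so without WNK2- Sor replicate 3 (501). Of 187 named genes 169 were called, 151 of them under every setting that tested them and kept WT Ctr as the reference. Some settings, such as at least 10 counts in every library, did not test all named genes. Without WT Ctr replicate 2 SLC12A4, COL17A1, FBLN5, MASP2, IGF1R, CSNK1D, NPAS2 and PHLDA2 lost their call and SLC12A5 and PER1 gained one. Leaving out 1 other library ended the call of COL17A1, FBLN5, MASP2, IGF1R, CSNK1D, DBP, NPAS2, POLE2 and PHLDA2. Against WNK2 trans Ctr, 15 called genes kept their sign and lost the call (SLC12A4, SLC6A12, IKBKG, MAML2, ITGB7, CSNK1D, CRY2, USP2, SLC7A11, TOP2A, TNFRSF21, HOXD10, HOXA3, H19 and PHLDA2), and the sign turned for WNK2 (0.69), CAB39 (0.074), KLHL2 (0.11), FOXO1 (−0.065), BARX1 (−0.14), CXCL8 (1.48), IGF1R (−0.33), IRS1 (−0.072) and PER3 (−0.33). WNK1, at 0.30 in the main analysis, turned sign, at −0.021 with the GC and length correction. SLC12A1, at −1.18 in the main analysis, turned sign with WT Ctr replicate 2 left out (range −1.601 to 2.72 with 1 library left out). PER3, at 0.032 in the main analysis, turned sign, at −0.15 with the GC and length correction, and with WT Ctr replicate 1, WT Ctr replicate 2 and WNK2- Ctr replicate 3 left out (range −0.080 to 0.17 with 1 library left out). CIART, at −0.045 in the main analysis, turned sign with WT Ctr replicate 2 left out (range −0.10 to 0.041 with 1 library left out). CSNK1E, at −0.0040 in the main analysis, turned sign, at 0.012 with RLE factors, 0.012 with upper-quartile factors, 0.0013 with no filter, 0.025 with at least 10 counts in every library, 0.076 with the replicate block, 0.056 with the GC and length correction, 0.013 with thinning and 0.011 with DESeq2, and with WT Ctr replicate 1, WT Ctr replicate 4, WNK2- Ctr replicate 3 and WNK2- Ctr replicate 4 left out (range −0.25 to 0.24 with 1 library left out). Replicate numbers were not taken to pair the samples, since the labels do not say that they do. The deviations of same-numbered WT Ctr and WNK2- Ctr libraries correlated at 0.64, −0.12, 0.62 and 0.19. Those of libraries with other numbers correlated at −0.67 to 0.37, and these values do not settle whether samples were paired. With the replicate block 6859 genes were called, and no named gene lost or gained its call. List medians near 0 (WNK pathway, transcription factors, Notch, clock, potassium channels, imprinted) took either sign under the scalings or without WT Ctr replicate 2. Genes with few counts have wide errors, and WT Ctr was the shallower group. The causes of these changes were not tested.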
